A study of Sus scrofa domesticus with 150 samples.

Results

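The comparison described here was the wound edge against the wound center on day 9 of healing of full-thickness excisional wounds in pig skin. Its members were the 12 RNA-seq libraries labelled day 9, 6 from wound edges and 6 from wound centers, out of 150 libraries in the series. The edge and the center of each wound were both sampled, so the libraries formed 6 pairs. The wounds came from 3 pigs with 2 wounds each, and wounds of 1 animal share that animal. The animals were females of a Yorkshire-mix breed, with no genetic modification named and no age given in the labels. The wounds were circles of 2 cm diameter on the back, dressed with Telfa Clear under Tegaderm and given no other treatment before biopsy. The 6 libraries of skin excised on day 0, before healing, are used for reference levels only. They came from 1 animal each, and only 3 of these animals also gave the day 9 wounds.

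At the edge of a healing wound the epidermis thickens, keratinocytes at its tip detach from their basement membrane and crawl over the wound bed, and the keratinocytes behind them divide and differentiate. The center of a wound that has not yet closed is granulation tissue, a matrix of young collagen and fibronectin that holds fibroblasts, contractile myofibroblasts, sprouting vessels and inflammatory cells. Wound keratinocytes switch on the stress keratins KRT6, KRT16 and KRT17, which intact interfollicular epidermis makes little of. Neutrophils and macrophages clear the wound and release cytokines of the interleukin-1 family. A biopsy mixes all of these cells, so a lower level of a gene from fewer cells of a type and from less RNA per cell cannot be told apart.

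The question was how the transcriptome of the edge differed from that of the center once re-epithelialization was under way. Levels are given as CPM, the counts of a gene per 1000000 counts of its library, scaled by TMM, a factor that corrects for differences in RNA composition. Fold changes are edge over center on the log2 scale, fitted by edgeR with each wound as a block, and a negative value is higher in the center. For edgeR, errors after ± are the absolute log2 fold change over the square root of its F statistic, an approximate standard error. For DESeq2, a second fitting program used below, they are its reported standard errors. A gene was called when its Benjamini-Hochberg adjusted p was below 0.05 over all 14446 genes tested. The libraries held between 16239304 and 20984457 assigned counts each. Where 3 levels are listed for a site, they are the lowest, the median and the highest of its 6 samples. Wounds are numbered 1 to 6, with wounds 1 and 2, 3 and 4, and 5 and 6 from the same animal.

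Of the 14446 genes, 5604 were called, which is 38.8% of those tested. The edge was higher for 3012 genes (20.9%) and the center for 2592 (17.9%), and the median log2 fold change of all genes was 0.0032. These 2 shares are the background for every list count given below. The edge was higher by 2-fold or more for 1528 genes (10.6%) and the center for 895 (6.2%). A difference of 16-fold or more was found for 503 genes higher at the edge (3.48%) and for 4 genes higher in the center (0.0277%). For 2574 genes (17.8%) the 6 edge and the 6 center samples did not overlap. When the 2 wounds of each animal were summed, which left 3 pairs, 4815 genes were called, and 4358 of the original calls were among them.

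One wound stood apart. Both samples of wound 5 held skeletal muscle RNA, with ACTA1, the actin of skeletal muscle fibers, taking 1.89% of counts at the edge and 1.46% in the center. ACTA1 was at 20727 CPM in that edge sample and 15286 CPM in that center sample, and no other day 9 sample exceeded 56.1 CPM. Muscle genes are therefore described apart. Leaving wound 5 out gave 5074 calls, and 4802 of the 5604 calls remained.

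Epidermal differentiation genes were higher at the edge. All 21 tested members of a list of suprabasal genes, which act in the cornifying layers, were called higher at the edge, with a median log2 fold change of 7.69. KRT10, the type I keratin of suprabasal cells (ENSSSCG00025042112, LUXX01073178.1:1798599-1802962 in the unnamed assembly of the count table), was at 5759.9, 10629 and 20846 CPM at the edge. In the center KRT10 was at 23.7, 43.5 and 81.7 CPM. Every edge sample thus exceeded every center sample, and the log2 fold change was 7.95 ± 0.39 (edgeR adjusted p = 6.85e-06). Its partner KRT1 changed by 7.86 ± 0.42, KRT2, a keratin of the upper layers, by 7.86 ± 0.39, and DSG1, a desmosomal cadherin, by 8.09 ± 0.45. None of these 4 genes overlapped between sites. The edge medians of KRT10 and KRT1, 10629 and 8068 CPM, stood beside day 0 medians of 17580 and 13200 CPM, with no test made between the days.

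The basal layer showed the same direction. Of 14 tested basal genes 13 were higher at the edge, with a median of 6.83, and 1, DST, was not called. KRT5, the basal type II keratin, was at 4298, 7112 and 9134 CPM at the edge. Center samples were at 14.3, 39.0 and 246 CPM. The sites did not overlap (log2 fold change 7.27 ± 0.65, edgeR adjusted p = 0.00012). The changes were 6.92 ± 0.50 for KRT15, a keratin of basal and bulge cells, 7.34 ± 0.56 for COL17A1, the transmembrane collagen of the hemidesmosome, 6.77 ± 0.52 for SFN, an epithelial 14-3-3 protein, and 6.89 ± 0.59 for TP63, the transcription factor of stratified epithelium. ITGA6, the integrin alpha chain that vessels also carry, differed less, by 1.91 ± 0.11, with center samples at 74.4 to 137 CPM. KRT15 was at 8926 to 17679 CPM at the edge against 4774 to 7027 CPM in the day 0 skin.

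Genes that mark an activated keratinocyte were likewise at the edge. Of 9 genes of the wound-activated list found 7 passed the count filter and were tested, and all 7 were higher there, with a median of 7.30. The filter can keep a gene through the edge samples alone, so this share rests in part on which genes passed. KRT6C, a stress keratin (ENSSSCG00025066379, LUXX01086989.1:12341-17623), was at 7299, 8809 and 16524 CPM at the edge. It was at 15.5, 68.5 and 242 CPM in the center, a log2 fold change of 7.27 ± 0.54 (edgeR adjusted p = 4.41e-05). The day 0 samples, at 441 to 1026 CPM, lay below all 6 edge samples and above all 6 center samples. The changes of KRT6B and of SERPINB3, a serine protease inhibitor of squamous epithelium, were 7.43 ± 0.58 and 7.14 ± 0.35. KRT6 copies are near-identical, so reads may be divided among them uncertainly. IL36RN, the antagonist of the IL-36 receptor, changed by 7.76 ± 0.32. Its agonists IL36A and IL36G had edge medians of 19.6 and 7.98 CPM and center medians of 0.0789 and 0 CPM.

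**Figure D1:**
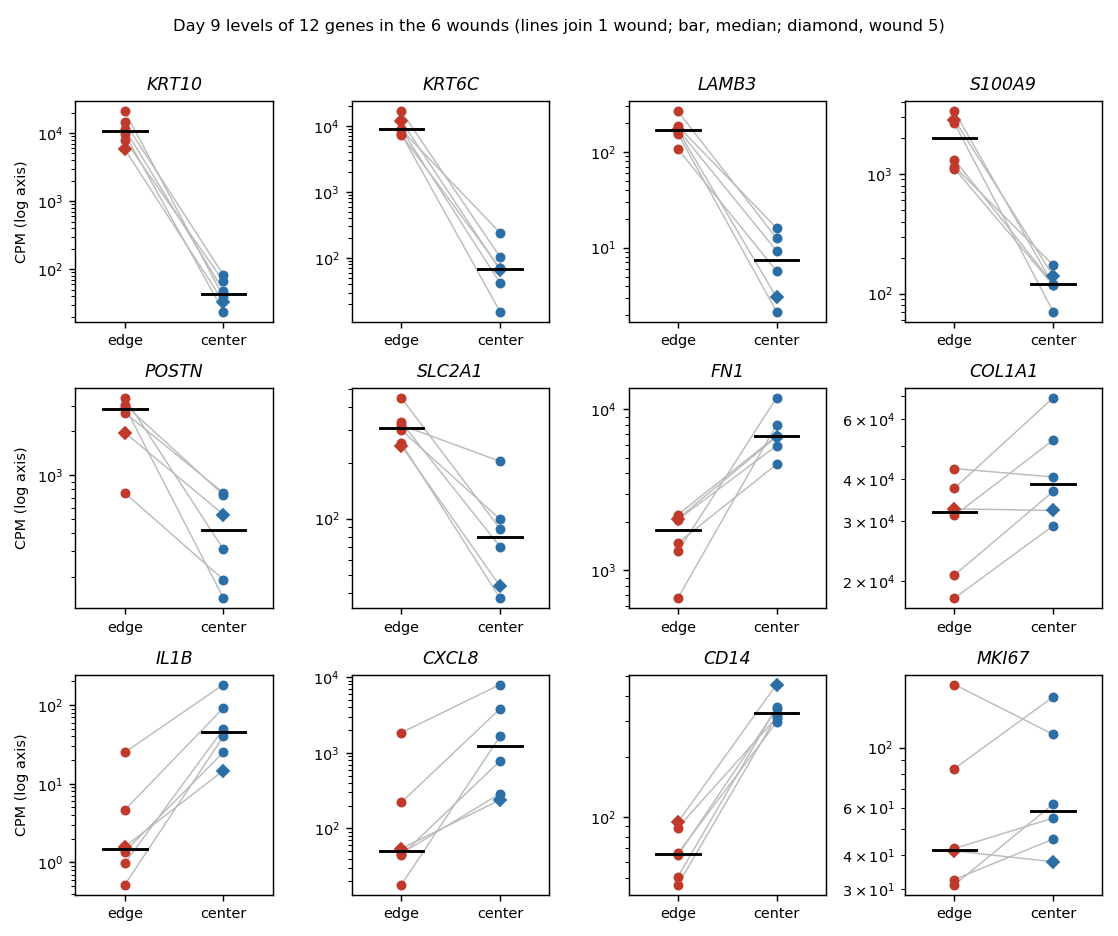
Level of 12 genes in CPM on a log axis in the 6 edge (red) and 6 center (blue) samples of day 9, with a line joining the samples of 1 wound, a bar at the median and diamonds for wound 5. KRT10, KRT6C, LAMB3, S100A9 and SLC2A1 do not overlap between sites and are higher at the edge, CD14 and FN1 do not overlap and are higher in the center, and COL1A1 and MKI67 overlap.

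Attachment and migration genes split by product. LAMA3 and LAMB3 encode chains of the epidermal laminin over which keratinocytes move. Both genes and the integrin genes ITGA3, ITGA2 and ITGB6 were higher at the edge, as was HBEGF, a ligand of the EGF receptor. LAMB3 was at 107, 169 and 264 CPM at the edge. It was at 2.16, 7.49 and 16.1 CPM in the center, with no overlap, a change of 4.69 ± 0.37 (edgeR adjusted p = 5.96e-05). Day 0 skin held 78.8 to 110.3 CPM of LAMB3. Against this, 3 of the 11 tested members were higher in the center, namely the collagenase MMP1 (-3.10 ± 1.02), the gelatinase MMP9 (-2.54 ± 0.68) and the urokinase receptor PLAUR (-0.99 ± 0.31). The call of MMP1 was lost without wound 1, 3, 4, 5 or 6 (adjusted p = 0.0577 to 0.124), MMP9 without wound 1 or 3 (adjusted p = 0.0592 to 0.0628) and PLAUR without wound 1, 3, 4 or 6 (adjusted p = 0.0585 to 0.103). The MMP1 change was -3.80 without wound 2 and -2.52 without wound 6. Without the wound block the adjusted p was 0.064 for MMP1 and 0.0878 for PLAUR. The center count of 3 fell to 0 without wound 1 or 3 and to 1 without wound 4 or 6 or without the block.

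Barrier and junction genes were also edge-enriched. All 15 tested junction genes were higher at the edge, with a median of 5.06. DSP, the desmosomal plaque protein, changed by 7.71 ± 0.58, PKP1, another plaque protein, by 7.71 ± 0.49, PERP, a desmosomal membrane protein, by 7.46 ± 0.49, and CDH1, E-cadherin, by 6.70 ± 0.44. JUP, plakoglobin, which other cells share, changed by 3.65 ± 0.23. Of 17 genes for cornification and barrier lipids 15 were higher at the edge. ELOVL4, which makes very long fatty acids, changed by 4.48 ± 0.20, TGM1, the transglutaminase that crosslinks the cornified envelope, by 4.01 ± 0.74, and SLC27A4, a fatty acid transporter, by 0.74 ± 0.11. ABCA12, the lipid transporter of lamellar granules, changed by 8.22 ± 0.39, and by 8.94 without wound 2. The gene matched by its protein description to TGM3 was the exception, higher in the center at -1.37 ± 0.42 with edge samples at 94.2 to 434 CPM and center samples at 76.1 to 1622 CPM. Its call was lost without wound 1, 2, 3 or 4 (adjusted p = 0.0688 to 0.0891).

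The 12 largest edge-enriched genes with a symbol included keratins and other proteins of the epidermis. KRT75, a companion-layer hair keratin, had no count in any center sample and 0.619, 6.97 and 40.1 CPM at the edge. The edge of wound 3 was the highest. PSAPL1, a prosaposin-like gene, had 3 center counts in all against edge levels of 8.24, 30.7 and 41.2 CPM. TEDDM1A had 2 center counts and edge levels of 1.91, 13.8 and 22.8 CPM. No fold is given for these genes. A second gene with the FLG2 name, KRT77, AADACL2, C16orf89, POF1B, KPRP and DSC1 were also among the 12, and the lowest of the 12 fitted changes was 8.27 ± 0.50, for the desmocollin DSC1. IL22RA1, the receptor chain through which keratinocytes answer IL-22, was at 11.4, 24.8 and 48.6 CPM at the edge and 0, 0.0249 and 0.113 CPM in the center. CCL28, a chemokine made by epithelia, was at 7.88, 29.6 and 38.5 CPM at the edge and 0, 0.06 and 0.163 CPM in the center. Neither gene overlapped between sites.

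Hair follicle genes were edge-enriched but uneven between wounds. Of 15 genes found 8 passed the count filter and were tested, and 7 of these were higher at the edge. The filter can keep a gene through the edge samples alone, so this share rests in part on which genes passed. SOX9, a factor of the follicle stem cell, was at 20.2, 44.2 and 54.0 CPM at the edge and 0.735, 1.09 and 2.54 CPM in the center (4.87 ± 0.37, edgeR adjusted p = 5.09e-05). KRT27, a keratin of the inner root sheath, was at 131, 959.7, 284 and 88.6 CPM at the edge of wounds 1, 3, 5 and 6. In wounds 2 and 4 it was at 0.361 and 0.533 CPM, within the center range of 0.217 to 1.86 CPM. Its fitted change was 7.21 ± 1.25, and 7.86 without wound 4. The fit with the wounds of an animal summed was filtered anew and tested more genes of the list, and 11 were higher at the edge. KRT71, another inner root sheath keratin, overlapped between sites too (7.76 ± 0.59). MGST1, a glutathione transferase rich in sebaceous glands, was not called (-0.40 ± 0.57). Among 7 tested genes of sweat gland and other transport epithelium 5 were higher at the edge, such as AQP5, a water channel of sweat glands (4.71 ± 0.48), and FOXC1 (1.84 ± 0.27), whereas SLC12A2 was not called (0.14 ± 0.10).

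Of 10 melanocyte genes found 4 passed the count filter and were tested, 0 were higher at the edge and 2 were higher in the center. The pigment genes PMEL, TYR, TYRP1, DCT, OCA2 and SLC45A2 did not pass the filter. MLANA, a melanosome protein, was at 0.214, 0.318 and 1.71 CPM at the edge and 1.49, 4.17 and 11.0 CPM in the center (-3.01 ± 0.48, edgeR adjusted p = 0.002), with 0 CPM in every day 0 sample. KIT, the stem cell factor receptor, which mast cells share, changed by -0.51 ± 0.15 and was lost without wound 1, 4, 5 or 6 (adjusted p = 0.0508 to 0.0978) and without TMM (adjusted p = 0.0631). MITF (-0.49 ± 0.24) and SOX10 (1.73 ± 0.70) were not called. MITF was called higher in the center without wound 3 (adjusted p = 0.0364), and SOX10 higher at the edge by DESeq2 (adjusted p = 0.02) and with the wounds of an animal summed (adjusted p = 0.0132). The list thus gave 3 center calls without wound 3 and 1 without wound 1, 4, 5 or 6 or without TMM.

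Growth factor genes were called at both sites. Of 17 genes of the EGF, FGF and HGF systems 11 were higher at the edge and 2 in the center. All genes gave 20.9% and 17.9%, so the center share of the list was below that of all genes. Among the edge genes were receptors of keratinocytes, with FGFR3 at 5.12 ± 0.37, ERBB3 at 4.56 ± 0.23, ERBB2 at 2.92 ± 0.25 and EGFR at 2.39 ± 0.24. EGFR was at 144, 193 and 231 CPM at the edge and 21.7, 40.0 and 66.2 CPM in the center, with no overlap. The 2 center genes encode fibroblast-derived ligands for epithelial receptors. FGF7, keratinocyte growth factor, was at 11.5, 17.4 and 59.0 CPM at the edge and 31.4, 55.3 and 146 CPM in the center, which overlapped (-1.38 ± 0.15, edgeR adjusted p = 0.000344). Without the wound block the adjusted p of FGF7 was 0.0596. HGF changed by -0.66 ± 0.22 and was lost without wound 1, 2, 3, 4 or 6 (adjusted p = 0.062 to 0.117), and without the block (adjusted p = 0.0999). The center count of 2 was 1 without wound 1, 2, 3, 4 or 6 or with the wounds of an animal summed, and 0 without the block.

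WNT family genes were called at both sites. Of 22 genes 10 were higher at the edge and 5 in the center, beside 20.9% and 17.9% of all genes. The center share was thus near that of all genes. WNT3, WNT3A, WNT4, WNT5B, WNT7B, WNT10A, WNT10B, WNT11 and WNT16 were the edge ligands. WNT3 was at 33.8, 48.1 and 68.8 CPM at the edge. It was at 0.444, 0.745 and 1.44 CPM in the center, a change of 5.94 ± 0.18 (edgeR adjusted p = 2.32e-06), and WNT10A changed by 5.42 ± 0.48. AXIN2, a feedback target of beta-catenin, was higher at the edge by 1.55 ± 0.16, at 13.9 to 26.1 CPM against 4.72 to 11.0 CPM. In the center WNT5A, a ligand of the non-canonical branch, was higher (-2.12 ± 0.39, edgeR adjusted p = 0.00427), as were WNT2 and the secreted antagonists SFRP1, SFRP2 (-1.13 ± 0.27) and DKK3 (-1.11 ± 0.20). SFRP4 was not called (-0.31 ± 0.73). Without the block the adjusted p of SFRP2 was 0.121, and 3 genes of the list were higher in the center.

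**Figure D2:**
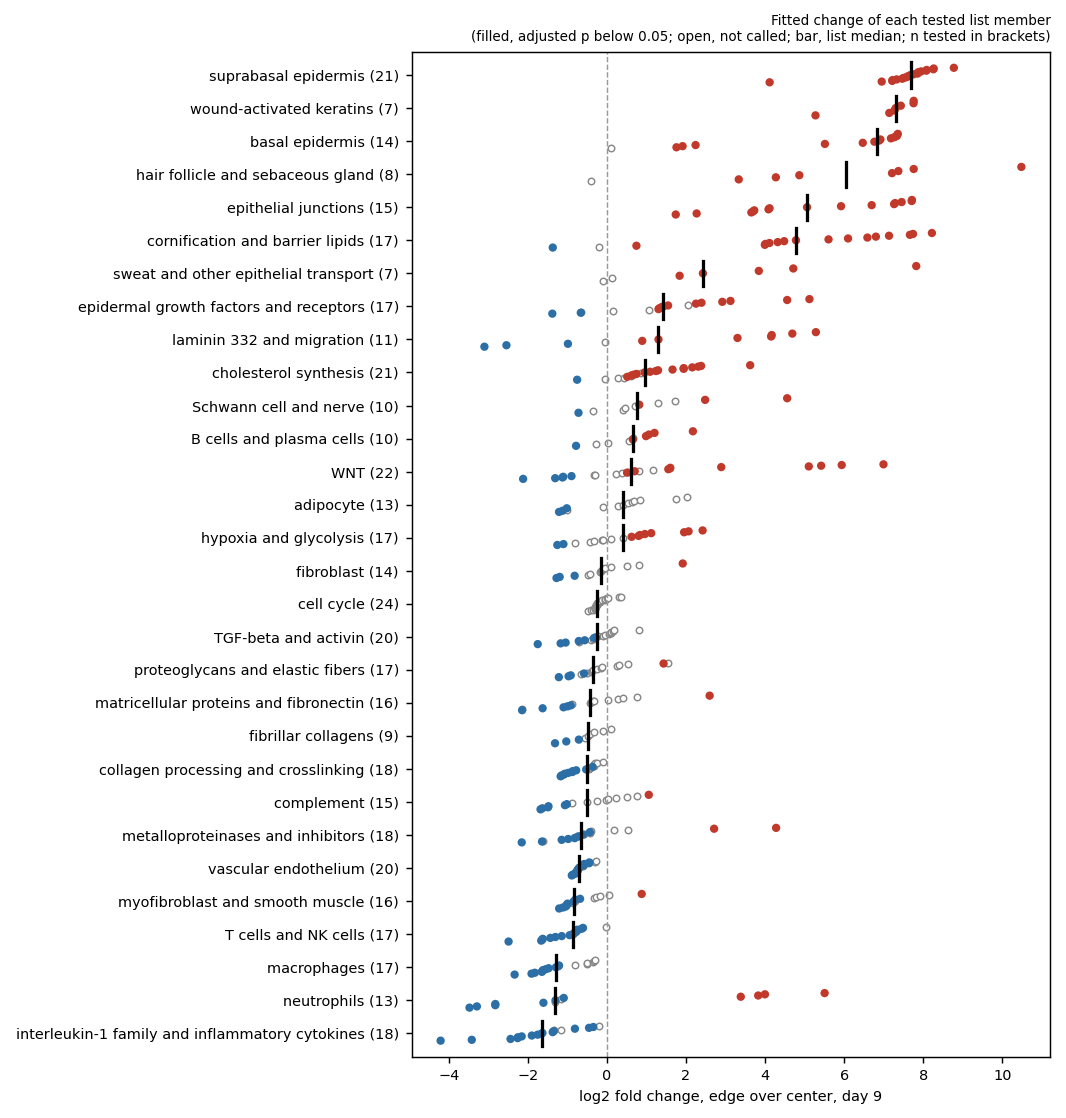
Fitted log2 fold change, edge over center, of every tested member of the lists with at least 7 tested genes other than skeletal muscle. Filled points were called (red higher at the edge, blue higher in the center), open points were not, and the bar is the list median, which runs from 7.69 for suprabasal genes to -1.65 for the interleukin-1 and cytokine list. The rightmost point, at 10.48, is KRT75, whose fitted value depends on center counts of 0 and is 9.52 without wound 3.

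Cholesterol synthesis enzymes were higher at the edge. Of 21 genes 15 were called in that direction and 1 in the other, with a median of 0.95. HMGCS1, which makes HMG-CoA, was at 225, 249 and 328 CPM at the edge. It was at 49.6, 59.9 and 73.4 CPM in the center, with no overlap, a change of 2.16 ± 0.10 (edgeR adjusted p = 6.34e-06). LSS, which forms lanosterol, changed by 1.24 ± 0.20 and DHCR7, a late enzyme of the pathway, by 3.62 ± 0.36. The exception was INSIG1, which retains the activator of the pathway in the endoplasmic reticulum (-0.76 ± 0.13).

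Hypoxia and glucose genes were mixed. Of 17 genes 8 were higher at the edge and 2 in the center, beside 20.9% and 17.9% of all genes. SLC2A1, the glucose transporter GLUT1, was at 247, 309 and 446 CPM at the edge and 37.3, 79.5 and 204 CPM in the center (2.06 ± 0.28, edgeR adjusted p = 0.000946). BNIP3, a mitophagy receptor, changed by 1.95 ± 0.28, the prolyl hydroxylase EGLN3 by 2.42 ± 0.39 and NDRG1 by 0.80 ± 0.17. Samples of SLC2A1, BNIP3 and EGLN3 did not overlap between sites. LDHA, lactate dehydrogenase, went the other way (-1.10 ± 0.28, edgeR adjusted p = 0.0155), with both samples of the muscle-bearing wound 5 the highest of their site at 2232 and 2694 CPM. Its call was lost without wound 1 (adjusted p = 0.0538) and without the block (adjusted p = 0.247). The glycolytic enzymes ENO1 (-0.10 ± 0.15) and PGK1 (-0.13 ± 0.12) were not called. The 2 center calls of the list became 1 without wound 1 or without the block.

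Inflammatory genes were higher in the center. Of 18 tested genes of the interleukin-1 family and inflammatory cytokines, 15 were higher in the center and 0 at the edge, with a median of -1.65. The center count was 11 without wound 1 or 4, 10 without the block and 17 by DESeq2, with 0 at the edge each time. IL1B, the main secreted interleukin-1 of myeloid cells (ENSSSCG00025004370, LUXX01011191.1:1226868-1234129), was at 0.521, 1.48 and 25.1 CPM at the edge. In the center it was at 14.7, 44.9 and 182 CPM, and it was higher in the center in 6 of 6 wounds (-4.21 ± 0.43, edgeR adjusted p = 0.000242). The sites overlapped only through the edge sample of wound 4, at 25.1 CPM, and the center of that wound was the highest of all at 182 CPM. TNF changed by -2.26 ± 0.30, and IL11, a cytokine of the IL-6 family, by -3.42 ± 0.62. TNFAIP3 and NFKBIA, feedback inhibitors of NF-kappaB, changed by -2.16 ± 0.20 and -1.35 ± 0.19 with no overlap between sites, and IL1RAP, the shared receptor chain, by -1.63 ± 0.21. IL1A (-1.37 ± 0.37) and the antagonist IL1RN (-1.66 ± 0.49) were also center genes. IL1A was lost without wound 1 or 4 (adjusted p = 0.0564 to 0.0636) and IL1RN without wound 1 or 4 (adjusted p = 0.0762 to 0.0896).

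The 12 largest center-enriched genes with a symbol included many products of inflammatory cells. Besides IL1B they held the chemokines CXCL8, CCL3 and CCL4, ACOD1, the itaconate-making enzyme of activated macrophages, the receptors CLEC4E and GPR84, the inflammasome protein MEFV, the hormone RETN, the cytokine IL17F and the acute-phase protein SAA2. ACOD1 was at 0, 1.64 and 10.9 CPM at the edge and 11.4, 21.3 and 96.9 CPM in the center (-3.85 ± 0.43, edgeR adjusted p = 0.000395), with no overlap. SAA2 did not overlap either (-3.46 ± 0.51), while RETN, CLEC4E, MEFV, GPR84 and IL17F did. CCL3 (-3.92 ± 0.45) lies on the minus strand inside the span that the table gives CCL4 (-3.60 ± 0.45) on the plus strand, and the counting is not stated to use strand, so their reads cannot be told apart. The gene with the largest change was SPHKAP, an anchor protein for protein kinase A, at 0, 0.377 and 3.91 CPM at the edge and 9.56, 12.4 and 111 CPM in the center (-5.52 ± 0.62, edgeR adjusted p = 0.00039). Its change was -4.87 without wound 3 and -6.28 without wound 4. GPR84 changed by -3.61 ± 0.55, with an adjusted p of 0.131 without the block.

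Neutrophil-associated genes moved in opposite directions. Of 13 tested genes 4 were higher at the edge and 7 in the center. The edge genes were the S100 proteins S100A8, S100A9 and S100A12 and the iron-binding LTF, antimicrobial products that keratinocytes can also make. S100A9 (ENSSSCG00025058500, LUXX01091667.1:172539-175358) was at 1109, 1979.6 and 3333 CPM at the edge. It was at 70.9, 119.7 and 174 CPM in the center, with no overlap, a change of 4.00 ± 0.39 (edgeR adjusted p = 0.000183). S100A8 changed by 3.38 ± 0.27 and S100A12 by 3.83 ± 0.31. Day 0 skin held at most 4.25 CPM of S100A9, 3.11 CPM of S100A8 and 7.18 CPM of S100A12. LTF changed by 5.51 ± 0.84, and by 6.49 without wound 4. The center genes were the receptors and chemoattractants. CSF3R, the receptor for granulocyte colony-stimulating factor, was at 10.3, 20.7 and 63.5 CPM at the edge and 87.8, 157 and 293 CPM in the center (-2.83 ± 0.26, edgeR adjusted p = 0.000142), with no overlap. CXCL8 was at 18.0, 50.5 and 1843 CPM at the edge and 238, 1212 and 7990.1 CPM in the center (-3.48 ± 0.61, edgeR adjusted p = 0.00327). It was higher in the center in 6 of 6 wounds, and the samples overlapped between sites, and without the block its adjusted p was 0.121. CXCL2 was also higher in the center in 6 of 6 wounds (-3.29 ± 0.46, edgeR adjusted p = 0.00116, and 0.108 without the block).

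Macrophage genes were higher in the center for 10 of 17 tested and at the edge for 0. CD14, the co-receptor for lipopolysaccharide, was at 46.1, 65.3 and 94.3 CPM at the edge. In the center it was at 296, 331 and 456 CPM, a change of -2.34 ± 0.14 (edgeR adjusted p = 1.44e-05), with no overlap and a narrow range at both sites. CSF1R (-1.29 ± 0.17), the receptor for the macrophage growth factor, and the scavenger receptors CD163 (-1.62 ± 0.28) and MRC1 (-1.21 ± 0.14) did not overlap either. The genes not called included GPNMB (-0.81 ± 0.53), APOE (-0.50 ± 0.36) and all 3 chains of complement C1q. C1QA had a value of -0.36 ± 0.54, with the center sample of wound 3 at 17.7 CPM and the others at 152 CPM or more. Without wound 3 C1QA was called (-0.84, edgeR adjusted p = 0.011), and the list gave 14 calls.

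T cell and NK cell genes were higher in the center for 15 of 17 tested, and at the edge for 0. CCL5, a chemokine of activated T cells, changed by -2.49 ± 0.41, NKG7, a granule protein of killer cells, by -1.64 ± 0.31 and IL7R by -1.67 ± 0.31. CD3E, a chain of the T cell receptor complex, was at 5.36, 8.1 and 11.8 CPM at the edge and 7.22, 12.7 and 19.5 CPM in the center (-0.65 ± 0.17). Its call was lost without wound 1 or 3 (adjusted p = 0.0533 to 0.0584) and without the block (adjusted p = 0.0566), and that of CD2 (-0.84 ± 0.22) was lost without wound 1, 2 or 3 (adjusted p = 0.0516 to 0.0585). The list gave 8 calls without wound 1, 9 without wound 2, 8 without wound 3, 10 without wound 5 and 9 without the block, each of them higher in the center. Of the B cell and plasma cell genes 5 of 10 were higher at the edge and 1, BLK, in the center (-0.78 ± 0.17). JCHAIN, the joining chain of secreted antibodies, was at 8.67, 63.2 and 117 CPM at the edge and 6.77, 9.99 and 27.2 CPM in the center (2.17 ± 0.37, edgeR adjusted p = 0.00293), higher at the edge in 6 of 6 wounds. DERL3 changed by 0.65 ± 0.17 and was lost without wound 2, 5 or 6 (adjusted p = 0.0577 to 0.0646), and FCRL5 was not called (-0.27 ± 0.29). The sites overlapped for JCHAIN. The edge count of 5 fell to 2 without wound 2 or 6, and to 3 without wound 4 or 5, without the block or with the wounds of an animal summed.

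Of 15 complement genes 6 were higher in the center and 1 at the edge. CLU, clusterin, changed by -1.49 ± 0.24 and the protease C1R by -1.06 ± 0.20, both with no overlap. CFD changed by -1.02 ± 0.30 and was lost without wound 1, 2, 5 or 6 (adjusted p = 0.058 to 0.0776), while SERPING1 was not called (-0.50 ± 0.40). CFI, the edge gene, changed by 1.06 ± 0.31 and was lost without wound 1 or 6 (adjusted p = 0.0736 to 0.0838) and without the block (adjusted p = 0.0562). Of 5 mast cell genes HDC (2.11 ± 0.68) and SLC18A2 (0.43 ± 0.13) were higher at the edge and KIT in the center, and MS4A2 (0.08 ± 0.22) and GATA2 (0.03 ± 0.22) were not called. The edge calls fell to 0 without wound 1, 2, 4 or 6 and to 1 without wound 3 or 5, and that of KIT to 0 without wound 1, 4, 5 or 6 or without TMM. HDC and SLC18A2 were also lost with no filter (edgeR adjusted p = 0.052 and 0.0534).

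Of 9 tested genes of fibrillar collagens, the main fibers of dermis and scar, 3 were higher in the center and 0 at the edge, with a median of -0.47, beside 17.9% and 20.9% of all genes. COL1A1, the main chain of type I collagen, was at 17847, 31935 and 42857 CPM at the edge and 29109, 38595 and 69094 CPM in the center. The sites overlapped and the gene was not called (-0.47 ± 0.22, edgeR adjusted p = 0.126), nor were COL3A1 (-0.43 ± 0.20), COL1A2 (-0.34 ± 0.21) and COL5A1 (-0.56 ± 0.23). DESeq2 called COL1A1 (adjusted p = 0.0184), COL3A1 (adjusted p = 0.0121) and COL5A1 (adjusted p = 0.0256), and without wound 5 edgeR called COL3A1 (adjusted p = 0.0403) and COL5A1 (adjusted p = 0.0214). The 3 called genes were COL5A2 (-0.71 ± 0.23), COL5A3 (-1.03 ± 0.18) and COL11A1 (-1.32 ± 0.38). COL5A2 was lost without wound 2, 3, 4 or 6 (adjusted p = 0.0813 to 0.115), and COL11A1 without wound 2, 4 or 6 (adjusted p = 0.06 to 0.0733) and without the block (adjusted p = 0.357). The count was 1 without wound 2, 4 or 6 or with the wounds of an animal summed, 5 without wound 5 and 6 by DESeq2.

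Enzymes that process collagen were higher in the center for 10 of 18 genes, and at the edge for 0. LOXL2, a lysyl oxidase that crosslinks collagen, was at 175, 377 and 514 CPM at the edge and 437, 826 and 1111 CPM in the center (-1.07 ± 0.23, edgeR adjusted p = 0.00784). BMP1, the procollagen protease, changed by -0.87 ± 0.17 with no overlap. The collagen chaperone SERPINH1 (-0.26 ± 0.20) and the protease ADAMTS2 (-0.46 ± 0.16) were not called, although ADAMTS2 was called without wound 5 (adjusted p = 0.0162), by DESeq2 (adjusted p = 0.0171) and with the wounds of an animal summed (adjusted p = 0.0431). By edgeR ADAMTS2 was also called without TMM (adjusted p = 0.0416), with another scaling (0.0483), without the 10 most abundant genes (0.0493) and without the skeletal muscle list (0.0407). Of 17 genes of proteoglycans and elastic fibers 4 were higher in the center, beside 17.9% of all genes. Among them were BGN, biglycan (-0.92 ± 0.17), and ASPN, asporin (-0.97 ± 0.21). DCN, decorin (-0.35 ± 0.14), and LUM, lumican (-0.37 ± 0.16), were called by DESeq2 alone (adjusted p = 0.0183 and 0.0492). ELN, elastin, was the only edge call (1.43 ± 0.49, edgeR adjusted p = 0.0497) and was lost without wound 1, 3, 5 or 6 (adjusted p = 0.0908 to 0.129) and without the block (adjusted p = 0.0526). ELN was also lost without TMM (adjusted p = 0.0526), with another scaling (0.05205), without the 10 most abundant genes (0.0519) and without the skeletal muscle list (0.0537). The list had 2 edge calls without wound 2 or 4, by DESeq2 or with the wounds of an animal summed, and 7 center calls by DESeq2.

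Within the matricellular list fibronectin and periostin stood on opposite sides. FN1, fibronectin, the early scaffold of granulation tissue (ENSSSCG00025023944, LUXX01052760.1:1600115-1672818), was at 672, 1772 and 2216 CPM at the edge. In the center it was at 4562, 6809.7 and 11796 CPM, with no overlap, a change of -2.15 ± 0.34 (edgeR adjusted p = 0.00206). POSTN, periostin, which binds collagen (ENSSSCG00025049827, LUXX01036174.1:1229537-1310612), was at 755, 2820.4 and 3385 CPM at the edge and 143, 424 and 756 CPM in the center. POSTN was higher at the edge in 6 of 6 wounds (2.60 ± 0.39, edgeR adjusted p = 0.00154), and the sites met only where the edge of wound 4, at 755 CPM, fell just under the center of wound 2, at 756 CPM. Day 0 skin held 2669 to 6278 CPM of POSTN and 356 to 746 CPM of FN1. Of the 16 genes POSTN was the 1 edge call, and FN1, THBS1 (-1.10 ± 0.19), CCN1, CCN2 and CCN4 were the 5 center calls. The edge calls were 2 without wound 3, and the center calls were 3 without wound 6 or without the block. DESeq2 made 2 edge and 9 center calls. TNC, tenascin C, missed the threshold (-0.88 ± 0.30, edgeR adjusted p = 0.0509) and was called without wound 1 (adjusted p = 0.0328) or wound 5 (adjusted p = 0.0441), by DESeq2 (adjusted p = 0.00562) and with the wounds of an animal summed (adjusted p = 0.0275). By edgeR TNC was also called without TMM (adjusted p = 0.0388), with another scaling (0.0466), with no filter (0.0463), without the 10 most abundant genes (0.0475) and without the skeletal muscle list (0.0419). SPARC (-0.35 ± 0.18) and THBS2 (-0.43 ± 0.26) were not called, but DESeq2 called SPARC (adjusted p = 0.0466).

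Of 18 tested proteases of the matrix and their inhibitors 8 were higher in the center, 2 at the edge and 8 were not called. MMP2, a gelatinase of fibroblasts, was at 2436, 3220.5 and 3829 CPM at the edge and 4900.3, 6374 and 8836 CPM in the center (-0.98 ± 0.15, edgeR adjusted p = 0.00197), with no overlap. MMP14, the membrane protease that activates MMP2, changed by -0.82 ± 0.15, and the inhibitor TIMP1 by -1.64 ± 0.25. ADAM12 changed by -0.73 ± 0.20 and was lost without wound 3, 4 or 6 (adjusted p = 0.0521 to 0.0619). TIMP2 was not called (-0.43 ± 0.16) but was without wound 3 (adjusted p = 0.0386), by DESeq2 (adjusted p = 0.0227) and with the wounds of an animal summed (adjusted p = 0.0399). The edge genes were MMP7, an epithelial matrilysin, with edge samples at 0.427 to 8.41 CPM, and MMP27, with edge samples at 3.16 to 14.3 CPM, and 1 edge call was left without wound 4. The center calls were 5 without the block and 13 by DESeq2.

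Of 16 genes of myofibroblasts and smooth muscle 9 were higher in the center and 1, the mural cell receptor NOTCH3, at the edge (0.88 ± 0.18). ACTA2, the smooth muscle actin that marks myofibroblasts, was at 157, 232 and 307 CPM at the edge and 355, 414 and 1149 CPM in the center (-1.05 ± 0.25, edgeR adjusted p = 0.0121). The sites did not overlap, and the center of wound 3, at 1149 CPM, stood above the other centers, which reached 491 CPM. TAGLN, transgelin, changed by -1.03 ± 0.27 and was lost without wound 4 or 6 (adjusted p = 0.0549 to 0.055). CALD1 (-0.68 ± 0.14) and PDGFRB, the receptor of pericytes and fibroblasts (-0.85 ± 0.14), did not overlap. With the wounds of an animal summed, 4 of the genes were higher in the center, and the adjusted p of ACTA2 was 0.0525 and that of TAGLN 0.0532. TPM1 (-1.01 ± 0.29), TPM2 (-1.21 ± 0.36) and DES are also made by skeletal muscle and were highest in wound 5. TPM1 was lost without wound 1, 2, 3, 4 or 6 (adjusted p = 0.0516 to 0.0798) and TPM2 without wound 1, 2, 3, 4 or 6 (adjusted p = 0.0592 to 0.0896). Without the block their values were -0.52 (adjusted p = 0.626) and -0.04 (adjusted p = 0.984), and with the wounds of an animal summed the adjusted p was 0.133 and 0.208.

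Of 14 fibroblast genes 3 were higher in the center and 1 at the edge, with a median of -0.14, and the center share was near the 17.9% of all genes. PDGFRA, the platelet-derived growth factor receptor of fibroblasts, was at 98.0, 185 and 359.8 CPM at the edge and 383, 445 and 754 CPM in the center (-1.28 ± 0.21, edgeR adjusted p = 0.00223), with no overlap. LRRC15, a membrane protein of activated fibroblasts and of hair follicles, was at 3.24, 30.0 and 49.7 CPM at the edge and 1.39, 7.01 and 10.5 CPM in the center (1.92 ± 0.34, edgeR adjusted p = 0.00326). THY1 (-0.16 ± 0.11), PRRX1 (-0.13 ± 0.19) and MFAP2 (-0.44 ± 0.15) were not called, but MFAP2 was called without wound 3 (adjusted p = 0.0499) or wound 5 (adjusted p = 0.0281), by DESeq2 (adjusted p = 0.0246) and with the wounds of an animal summed (adjusted p = 0.0212). By edgeR MFAP2 was also called without the skeletal muscle list (adjusted p = 0.0441). The center calls were 5 without wound 3 and by DESeq2, and the edge calls 2 without wound 3 or 4, by DESeq2, without TMM or with the wounds of an animal summed. In the TGF-beta and activin list 7 of 20 genes were higher in the center and 0 at the edge. INHBA, the subunit of activin A, was at 13.5, 41.3 and 60.6 CPM at the edge and 61.5, 102 and 566 CPM in the center (-1.75 ± 0.40, edgeR adjusted p = 0.0103), with no overlap and the center of wound 3 highest. TGFBR2, a receptor chain for TGF-beta, changed by -0.56 ± 0.14 and TGFB1 by -0.71 ± 0.20, while LTBP1 was not called (0.07 ± 0.21). TGFBR2 was lost without wound 1 (adjusted p = 0.0574) and TGFB1 without wound 1, 3, 5 or 6 (adjusted p = 0.051 to 0.0745), and the list gave 4 calls without wound 1 or 6.

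Vessel genes were higher in the center. Of 20 endothelial genes 16 were called in that direction and 0 in the other, with a median of -0.71. The center count was 11 without wound 1, 12 without wound 2 or 4, 13 without wound 6 or the block, and 17 by DESeq2. PECAM1, the endothelial adhesion molecule CD31, was at 213, 295 and 381 CPM at the edge. In the center it was at 419.7, 526 and 695 CPM, with no overlap (-0.80 ± 0.11, edgeR adjusted p = 0.000978). CDH5, the cadherin of endothelial junctions (-0.81 ± 0.09), and PLVAP, a protein of their fenestrae (-0.87 ± 0.12), did not overlap either, and VWF changed by -0.75 ± 0.18. The list median of a single wound was between -0.99 and -0.34. Of 10 Schwann cell and nerve genes 3 were higher at the edge and 1 in the center. NGFR, the low-affinity neurotrophin receptor, changed by 2.48 ± 0.52, and PRX and ERBB3 were the other edge genes, the latter also a keratinocyte gene. MBP, the myelin basic protein, changed by -0.72 ± 0.21 and was lost without wound 3, 4, 5 or 6 (adjusted p = 0.0524 to 0.0857), and PMP22 (-0.34 ± 0.15) and L1CAM (0.41 ± 0.15) were not called. DESeq2 made 5 edge calls in the list.

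No cell cycle gene was called. Of 24 tested genes, 0 passed the threshold by edgeR or by DESeq2 with the wound block, and 0 were at an unadjusted p below 0.05 by edgeR. When wound 3 was left out, 1 was called, higher at the edge. MKI67, the proliferation marker, was at 31.1, 41.9 and 171 CPM at the edge and 37.8, 58.3 and 154 CPM in the center (-0.30 ± 0.21, edgeR adjusted p = 0.297). The edge of wound 4 was the highest edge sample and the center of wound 3 the highest center sample. TOP2A (-0.47 ± 0.23), MCM6 (-0.31 ± 0.14) and RRM2 (-0.17 ± 0.27) overlapped as well. The list median was -0.25, and the median of a single wound was between -0.999 in wound 3 and 0.29.

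Muscle genes set wound 5 apart from the other wounds at both sites. Summed over 32 skeletal muscle genes found, wound 5 held 81809 CPM at the edge and 67123 CPM in the center, and the other 10 samples between 327 and 736 CPM. PYGM, muscle glycogen phosphorylase, was at 5152 and 4896 CPM in the samples of wound 5 and was not called (-0.18 ± 0.13), and neither were ACTA1 (-0.44 ± 1.20), ENO3 (0.01 ± 0.50) and ATP2A1 (1.25 ± 1.02). Of 18 tested 2 were higher in the center, DES (-1.12 ± 0.23) and TPM3 (-0.47 ± 0.15), and without the block neither was (adjusted p = 0.984 and 0.122). TPM3 was lost without wound 1, 2, 3 or 6 (adjusted p = 0.0511 to 0.14), and DES with the wounds of an animal summed (adjusted p = 0.103). The center count was 1 without wound 1, 2, 3 or 6 or with the wounds of an animal summed, 0 without the block and 3 by DESeq2. Without wound 2 the list also had 1 edge call. Neither of 2 tested regeneration genes was called with all wounds, and 1 was without wound 5. The signs of ACTA1, ATP2A1, ENO3, PYGM and ADIPOQ turned in at least 1 alternative each. The adipocyte list had 3 center calls of 13, beside 17.9% of all genes. ADIPOQ, adiponectin, ranged at the edge from 31.0 to 2288 CPM and in the center from 2.09 to 1323 CPM (0.68 ± 1.97). LPL changed by -1.21 ± 0.31, and FABP4 (-1.12 ± 0.37) was lost without wound 1, 2, 4, 5 or 6 (adjusted p = 0.0589 to 0.113) and without TMM (adjusted p = 0.0595), and the list had 1 call without wound 1, 2 or 5. DESeq2 and the fit with summed wounds each made 2 edge calls in it. The 4 tested erythrocyte genes HBB, GYPC, ALAS2 and HBM were not called by edgeR with all wounds. ALAS2 was called without wound 1 (adjusted p = 0.0466). HBB, ALAS2 and HBM were called higher at the edge with the wounds of an animal summed, and GYPC higher in the center by DESeq2 (adjusted p = 0.023). The part of these tissues in the edge and center differences was not tested beyond leaving wound 5 out.

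**Figure D3:**
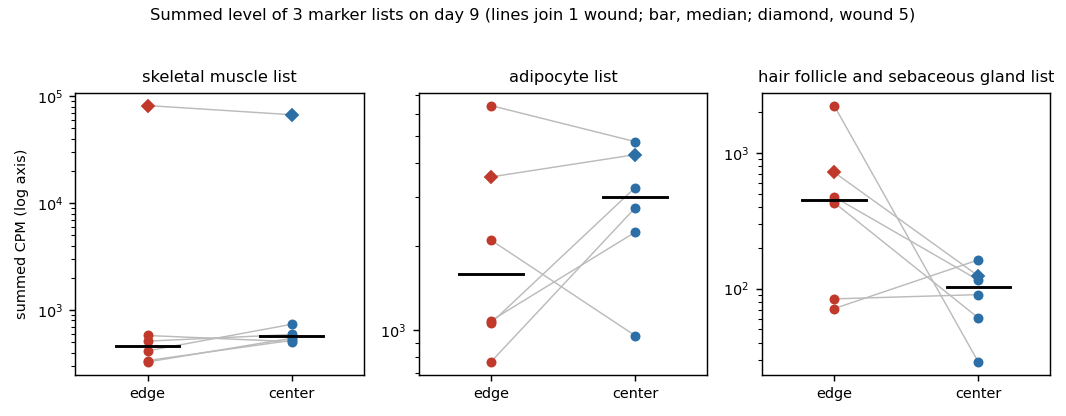
Summed CPM, on a log axis, of the skeletal muscle, adipocyte and hair follicle lists in the 6 edge (red) and 6 center (blue) samples of day 9, with lines joining 1 wound, bars at medians and diamonds for wound 5. The muscle list separates wound 5 from the other wounds at both sites, and the edge and center samples of the other lists overlap.

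Days 6 and 13 were sampled in other wounds of the same 3 animals, so a day and the position of its wounds cannot be told apart. Whether the edge and center difference itself differed between days was tested as an interaction over 24 samples. By edgeR 0 of 15156 genes differed between day 9 and day 6 (lowest adjusted p = 0.197), with 1758 (11.6%) at an unadjusted p below 0.05. DESeq2 with the same model called 334 (2.2%), of which 68 had the larger edge-minus-center value on day 9. Against day 13 edgeR called 0 of 15109 (lowest adjusted p = 0.0729), with 1065 (7.05%) at an unadjusted p below 0.05, and DESeq2 called 42 (0.278%). The differences between days that follow are given by edgeR and by DESeq2.

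Against day 6, at an unadjusted p below 0.05 by edgeR stood 11 of 19 tested genes of the interleukin-1 and cytokine list, 10 of 13 neutrophil genes, 10 of 17 macrophage genes, 5 of 15 complement genes and 5 of 9 hair follicle genes, beside 11.6% of all genes. Of 15 hair follicle genes found only these 9 were tested. The filter can keep a gene through the samples of 1 site and day alone, so the hair follicle share rests in part on which genes passed. DESeq2 called 5, 4, 4 and 3 genes of the first 4 lists, all with the smaller edge-minus-center value on day 9, and 2 hair follicle genes with the larger. On day 6 IL1B was at 2.27, 23.1 and 152 CPM at the edge and 6.17, 20.2 and 240.4 CPM in the center, which overlapped. The day 9 minus day 6 difference of its log2 fold change was -3.45 ± 0.96 by edgeR (adjusted p = 0.209) and -3.50 ± 0.88 by DESeq2 (adjusted p = 0.0105). For CSF3R the values were -2.55 ± 0.52 (edgeR adjusted p = 0.197) and -2.54 ± 0.48 (DESeq2 adjusted p = 0.000432), and for CD14 -1.59 ± 0.35 (edgeR adjusted p = 0.197) and -1.58 ± 0.34 (DESeq2 adjusted p = 0.00211). CXCL8 was at 114, 552 and 2602 CPM at the edge on day 6 and 108, 199 and 2585 CPM in the center, with a difference of -3.96 ± 1.22 (edgeR adjusted p = 0.23) and -3.96 ± 1.04 (DESeq2 adjusted p = 0.0161). S100A9 was at 85.0, 587 and 931 CPM at the edge on day 6 against 12.2, 41.6 and 202 CPM in the center, which overlapped, with a difference of 0.77 ± 0.58 (edgeR adjusted p = 0.635) and 0.78 ± 0.52 (DESeq2 adjusted p = 0.532).

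Against day 13, at an unadjusted p below 0.05 by edgeR stood 7 of 17 T cell genes, 4 of 8 hair follicle genes, 5 of 14 basal, 6 of 21 suprabasal, 6 of 22 WNT and 4 of 11 B cell genes, beside 7.05% of all genes. Of 15 hair follicle genes found only these 8 were tested. The filter can keep a gene through the samples of 1 site and day alone, so the hair follicle share rests in part on which genes passed. DESeq2 called 2 T cell, 3 hair follicle and 1 B cell gene, all with the larger edge-minus-center value on day 9, and 0 of the other lists named here. CD3E was at 2.01, 5.19 and 13.2 CPM at the edge on day 13 and 9.24, 20.9 and 85.3 CPM in the center, and the difference was 1.35 ± 0.27 (edgeR adjusted p = 0.36) and 1.37 ± 0.30 (DESeq2 adjusted p = 0.00553). KRT27 was at 0.101, 0.184 and 0.671 CPM at the day 13 edge, below the edges of wounds 1, 3, 5 and 6 on day 9, with a difference of 7.64 ± 1.85 (edgeR adjusted p = 0.512) and 5.92 ± 1.55 (DESeq2 adjusted p = 0.0481). JCHAIN, higher at every day 9 edge, was at 32.1, 101 and 284 CPM at the edge on day 13 and 8.02, 43.6 and 679.9 CPM in the center, which overlapped, with a difference of 1.45 ± 0.68 (edgeR adjusted p = 0.705) and 1.44 ± 0.59 (DESeq2 adjusted p = 0.411). Against day 6 the JCHAIN difference was 1.63 ± 0.51 (edgeR adjusted p = 0.232) and 1.64 ± 0.49 (DESeq2 adjusted p = 0.0398). KRT10 was at 5577, 7558 and 11791 CPM at the day 6 edge and 1691, 9892 and 20388 CPM at the day 13 edge, above all center samples of those days. Its difference from day 6 was 0.83 ± 0.56 (edgeR adjusted p = 0.602) and 0.84 ± 0.51 (DESeq2 adjusted p = 0.481), and that from day 13 0.70 ± 0.50 (edgeR adjusted p = 0.783) and 0.71 ± 0.46 (DESeq2 adjusted p = 0.743). The basal list median per wound was between 4.67 and 8.02 on day 9 and between 0.60 and 7.00 on day 13. FN1 was at 1342, 2986 and 4112 CPM at the edge on day 13 against 6095, 6642 and 9086 CPM in the center, and POSTN at 1686, 2667 and 5771 CPM against 596, 1288 and 1719.8 CPM. Their day 13 samples did not overlap for FN1 and overlapped for POSTN.

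**Figure D4:**
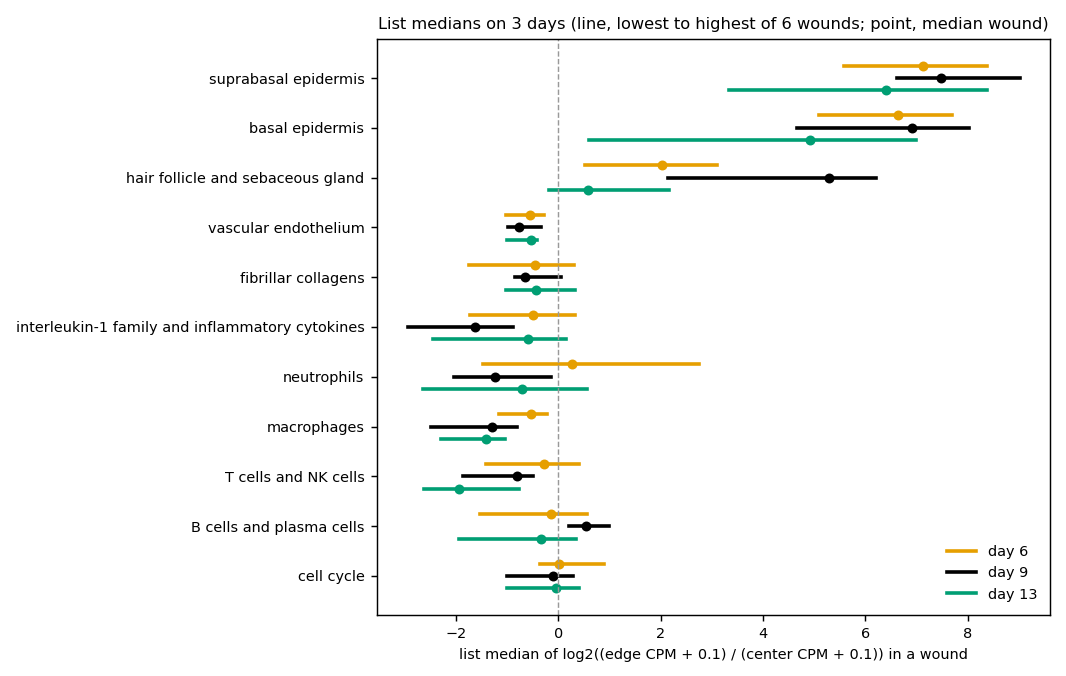
Median over a list's tested genes of the log2 ratio of edge to center CPM (0.1 CPM added to each) within a wound, for 11 lists on days 6, 9 and 13. Lines run from the lowest to the highest of 6 wounds and points mark the median wound. All 6 day 9 wounds lie below 0 for the cytokine, neutrophil, macrophage and T cell lists and above 0 for the B cell list. The macrophage list also lies below 0 in all 6 wounds on days 6 and 13, and the T cell list on day 13.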

How the data were processed

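RNA was extracted from wound biopsies with a kit for fibrous tissue, and poly-A libraries were read on an Illumina sequencer as paired ends. The authors deposited raw counts of reads per gene for 150 samples, with gene names and contig positions but no named genome build. The aligner, counter, build and use of strand were not given in the sources used here. A table of FPKM values was not used.

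Levels are CPM with TMM factors set over the 42 libraries of days 0, 6, 9 and 13. The test was edgeR 4.0.16 in R 4.3.3, quasi-likelihood, TMM, genes kept by filterByExpr (minimum count 10, minimum total 15), with the wound as a block and Benjamini-Hochberg adjustment at 0.05. The filter can keep a gene through the samples of 1 site alone. Interactions used the same model over 24 samples. Alternatives were DESeq2 1.42.0, other scalings, no filter, no block, summed animals, and leaving out each wound. The scripts were tested on simulated data. By the labels, edge and center samples of the same number came from 1 wound. Deviations from the group means correlated within wounds at 0.125 to 0.791, against a median of -0.131 for other pairs. Subtracting the group means ties these values together, so the other pairs are no independent baseline. Of the 6 edge samples 3 correlated best with the center of their own wound, so the correlations alone do not settle the pairing.

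Members and gene lists were chosen with earlier results of these data known. Named genes were the 12 largest per direction with a symbol, called, of the same sign in 6 wounds and at least 5 CPM on average, outside the muscle lists, IL1B and KRT10, the 4 most abundant genes of each list, and others that a count needed, which were chosen after their values were seen. A further part of the rule, for genes called between days by edgeR, named none. Of 594 list symbols 553 were found, by the name column or by the protein description. For 10 symbols the name column pointed to a gene described as another protein: 5 were matched by description and 5 left out. Of 30461 genes 8774 had no symbol. P-values of the main fit measure the spread of the edge and center difference over 6 wounds, taken as independent although they came from 3 animals. Some genes that the rule names are not reported here.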

Additional observations from a re-analysis of the deposited data

Results flagged for a closer look

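In groups of 6 samples, a sample was marked when its gap to the nearest other sample took an unusually large part of the range of log2(CPM + 1), by Dixon's ratio at the 95% level. Chance marks about 1 in 20 groups, or 18.8 of the 375 groups examined, and 46 were marked.

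In the muscle-bearing wound 5 genes of muscle were marked at both sites. At the edge these were PYGM (5152 CPM, ratio 0.92), ENO3 (4955 CPM, ratio 0.71), ATP2A1 (4164 CPM, ratio 0.693), DES (1878 CPM, ratio 0.864), TPM1 (2996 CPM, ratio 0.733) and TPM2 (3418 CPM, ratio 0.792). In the center they were ACTA1 (15286 CPM, ratio 0.78), PYGM (4896 CPM, ratio 0.872), ENO3 (3529 CPM, ratio 0.84), ATP2A1 (3716 CPM, ratio 0.7), DES (1862 CPM, ratio 0.926) and TPM2 (2284 CPM, ratio 0.677), all high at both sites, beside the glycolytic PGK1 (791 CPM, ratio 0.715), also high. Its edge sample was also low for CCL28 (7.88 CPM, ratio 0.629), FGFR3 (176 CPM, ratio 0.741) and KRT2 (684 CPM, ratio 0.658) and high for MLANA (1.71 CPM, ratio 0.724).

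The edge of wound 4 was high for the inflammatory genes IL1RN (261 CPM, ratio 0.711), CCL4 (32.6 CPM, ratio 0.739), CCL5 (127 CPM, ratio 0.736), NFKBIA (179.6 CPM, ratio 0.684) and IL1RAP (78.1 CPM, ratio 0.657), and for SPHKAP (3.91 CPM, ratio 0.76). The same sample was low for DCN (1132 CPM, ratio 0.902), TIMP2 (713 CPM, ratio 0.713), MMP27 (3.16 CPM, ratio 0.796), POSTN (755 CPM, ratio 0.635) and ELF5 (4.84 CPM, ratio 0.664).

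The center of wound 3 was high for ACTA2 (1149 CPM, ratio 0.725), TAGLN (1516 CPM, ratio 0.641) and INHBA (566 CPM, ratio 0.693) and low for C1QA (17.7 CPM, ratio 0.801) and JUP (47.4 CPM, ratio 0.703). The edge of wound 3 was high for THBS1 (513 CPM, ratio 0.706) and THY1 (537 CPM, ratio 0.633).

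The other marks were spread over samples. The edge of wound 6 was low for TNC (480.5 CPM, ratio 0.638), BMP1 (159 CPM, ratio 0.663) and BGN (540.1 CPM, ratio 0.681), and the edge of wound 1 was high for KRT15 (17679 CPM, ratio 0.792). The center of wound 4 was high for SFRP2 (2761 CPM, ratio 0.829) and GATA2 (8.56 CPM, ratio 0.628) and low for LRRC15 (1.39 CPM, ratio 0.639). The center of wound 2 was high for ABCA12 (0.76 CPM, ratio 0.639) and IL36A (1.03 CPM, ratio 0.779), and that of wound 1 for IL36G (0.17 CPM, ratio 0.639) and DERL3 (3.9 CPM, ratio 0.669). The cause of these deviations was not tested.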

How the results depend on the processing

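The day 9 counts stayed within 1.5 times the 5604 calls under every alternative run, from 4237 (2336 at the edge) without wound 6 to 6245 by DESeq2, and 5581 of the calls were also made by DESeq2. Without the wound block 4563 genes were called (2496 at the edge), 4438 of them among the 5604. 0 of the named genes that were called changed sign under any alternative, and 12 named genes that were not called did so under at least 1. Of up to 200 named genes, 18 lost their call without the block, 12 with animals summed and between 9 and 22 with 1 wound left out. The interaction counts depended on the tool: 334 for day 6 and 42 for day 13 by DESeq2 against 0 by edgeR, and with 1 wound left out edgeR gave 0 for day 6 and between 0 and 1 for day 13. The cause of that difference was not tested. Libraries held 16239304 to 20984457 counts, and what a greater depth would change was not tested. The wounds came from 3 animals, and wounds of 1 animal are not independent.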
